A study of Mus musculus with 32 samples.

Results

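The small ribosomal subunit processome was followed through 31 genes, taken by symbol from the table of normalised read counts, which lists 34223 genes. The list holds subunits of the UtpA, UtpB and Mpp10 complexes, proteins of the U3 particle, scaffold proteins and enzymes, and factors of the later precursor of the small subunit. All 31 symbols were found and all 31 passed the filter on low values, which asked for a normalised count of 10 or more in 8 or more embryos of the 32. Each library held the polyadenylated RNA of 1 wild-type embryo, collected 28 h past in vitro fertilisation as a late 2-cell embryo. Every embryo had received mRNA for H3.3-GFP, histone H3.3 joined to green fluorescent protein, and only GFP-positive embryos were kept. In 16 embryos, Val_LNA, the injection also held an antisense oligonucleotide with locked nucleic acid (LNA) bases against tRFValCAC, a piece cut from a tRNA for valine. For the other 16, Ctrl_LNA, the oligonucleotide was a scrambled LNA sequence. The comparison asks which transcripts differ when that fragment is inhibited. Whether the embryos stem from different matings or days of injection is not in the labels, so each p-value is set against the spread among these single embryos alone.

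Ribosomes are built in the nucleolus from a long precursor RNA. As RNA polymerase I transcribes it, the UtpA complex, then UtpB and the U3 snoRNP, gather on the part that becomes the small subunit, and U3 base pairs with the RNA to hold it for folding and cleavage. The Mpp10 complex, large scaffold proteins, helicases and modifying enzymes complete the particle. The helicase Dhx37 later strips U3 away, and the precursor that is left is matured and exported by factors such as Bysl, Ltv1, Tsr1, Pno1 and Nob1. A mouse embryo starts with ribosomes stored in the egg and begins to transcribe its own ribosomal RNA around the 2-cell stage, when its nucleolus precursor bodies turn into active nucleoli.

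Most processome transcripts were present in every embryo. The embryos gave between 2592925 and 6259870 reads, and all 14 late 2-cell markers in the table (Zscan4, Tcstv and Tdpoz genes among them) were above a mean normalised count of 10 in both groups, as were all 11 egg-derived transcripts such as Zp3 and Gdf9. Of 12 markers of cumulus and granulosa cells, the cells that surround the egg, 2 in Val_LNA and 1 in Ctrl_LNA were above a mean of 10. Their sum lay between 0 and 413 normalised counts in Val_LNA (median 37.7) and between 0 and 811 in Ctrl_LNA (median 18.6), with Fshr and Foxl2 at 0 in every control. Of 8 markers of blastocyst lineages, 4 and 3 were above a mean of 10, and their sum lay between 12.4 and 309 in Val_LNA, where Sox17 was at 0 throughout, and between 0.90 and 446 in Ctrl_LNA. One control, Ctrl_LNA 48, stood apart, with 7276 genes detected against 16687 to 20200 in the other 31 embryos. It had no read of Nat10, Bysl or Utp20 and very high values of other members (4645 normalised counts of Noc4l, 4704 of Ddx52), so results are given with and without it. A whole embryo was read in each library, so fewer cells with a transcript and less of it in each cell cannot be told apart.

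Of the 31 processome transcripts, 4 fell in Val_LNA embryos and none rose, by limma at a Benjamini-Hochberg adjusted p under 0.05 over 15559 genes. The 4 were Dhx37, Wdr43, Tsr1 and Nop56, each from a different complex or group of members. Among all tested genes 1.31% were called lower and 0.881% higher, beside 4 of 31 members lower. The members were chosen with earlier results of these data known, so their shares beside all genes are a description. At an unadjusted p under 0.05, 9 members were lower and 1 was higher, where 5.85% of all tested genes were lower. The log2 fold change was below 0 for 24 members and for 35.7% of all tested genes, and its median was -0.40 for the members and 0.26 for all genes.

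**Figure D1:**
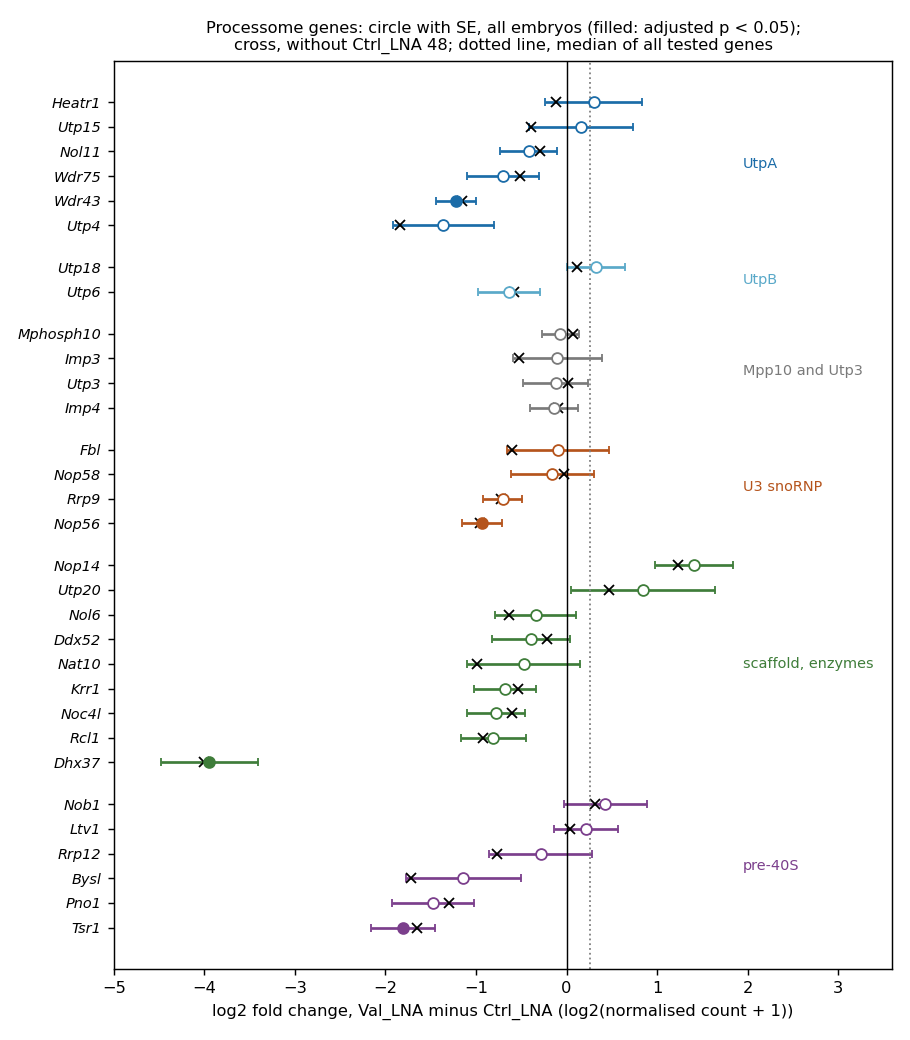
Log2 fold change of each of the 31 processome genes (horizontal axis, Val_LNA minus Ctrl_LNA on log2(normalised count + 1)) by complex, with circles and bars for the estimate and SE from all 32 embryos, filled where the adjusted p was under 0.05, and crosses without Ctrl_LNA 48. Dhx37 lies at -3.94, far left of every other member, 24 circles lie left of 0, and the dotted line marks the median of all tested genes, 0.26.

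Leaving out Ctrl_LNA 48 raised the number of members that fell to 7, with none that rose. The 3 added were Utp4, Bysl and Rrp9. Without that embryo 2.63% of all tested genes were called lower and 1.57% higher, the members' median was -0.54 beside 0.068 for all genes, and the fold change was below 0 for 24 members and for 45.8% of all genes. EdgeR's quasi-likelihood test on the recovered reads called 3 members lower (Dhx37, Wdr43 and Tsr1) and none higher, with 1.05% of all tested genes lower and 0.186% higher. DESeq2 called 6 lower, those 3 with Nop56, Utp4 and Pno1, and none higher, with 2.09% of genes lower and 1.21% higher. Limma with a weight for each embryo called 8 lower, the 7 above with Pno1, and Nop14 higher, with 3.62% of genes lower and 2.27% higher.

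The median of all tested genes was itself off 0, and scaling each embryo to its median tested gene moved it from 0.26 to -0.19. Ctrl_LNA 48 detected 7276 genes in all, so most of the 15559 tested genes were at 0 in it. This scaling therefore left that embryo unshifted while the others were moved down. On that scale 4 members were lower (Dhx37, Tsr1, Utp4 and Bysl) and none higher, while 1.93% of all genes were lower and 0.392% higher, 61 higher and 300 lower in place of 137 and 204. Wdr43 (-1.67, limma adjusted p = 0.069) and Nop56 (-1.38, adjusted p = 0.090) were not called there. With Ctrl_LNA 48 left out as well, centring moved the median of all genes from 0.068 to -0.00040. That fit called 6 members lower, Wdr43 and Nop56 among them, and none higher, with 2.78% and 1.2% of all genes.

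Dhx37, the DEAH-box helicase that releases U3 from the pre-rRNA, changed most. The gene (ENSMUSG00000029480.13) lies at chr5:125413858-125434121 on the minus strand of GRCm38 and has no exon shared with another annotated gene. Its normalised count ran from 30.9 to 221 in Ctrl_LNA with a median of 79.2, and from 0 to 35.6 in Val_LNA with a median of 7.29. In 5 Val_LNA embryos no read of it was found, every control had reads, and 15 of 16 Val_LNA embryos lay below the lowest control. All 16 Val_LNA embryos lay below the control median, which 1.12% of all tested genes share. The log2 fold change was -3.94 ± 0.54 (SE, limma adjusted p = 1.97e-05), and -4.01 without Ctrl_LNA 48. With a pseudocount of 10 in place of 1 it was -2.42, since many Val_LNA values are near 0, and edgeR gave -3.34 (adjusted p = 0.0022). It was called in each of the 19 alternative analyses and in each of the 32 that left out 1 embryo.

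**Figure D2:**
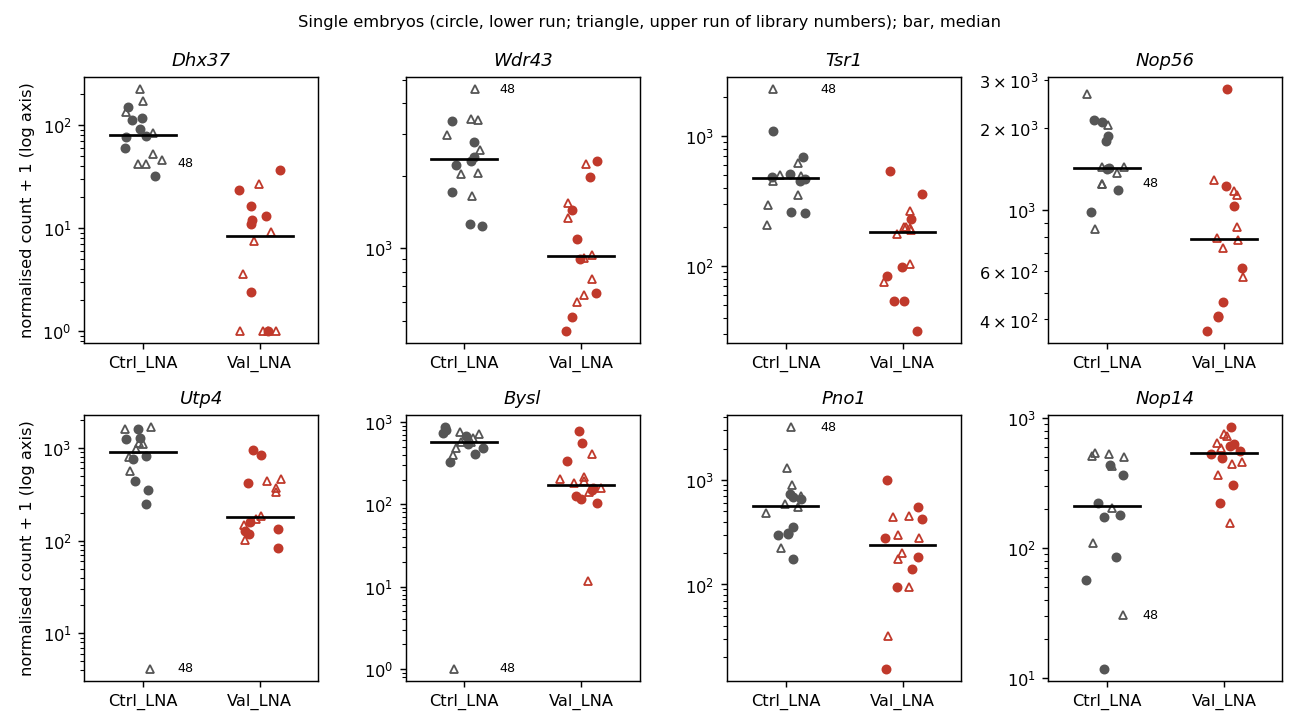
Normalised count + 1 (vertical log axes) of Dhx37, Wdr43, Tsr1, Nop56, Utp4, Bysl, Pno1 and Nop14 in single embryos of both groups, with circles for the lower and triangles for the upper run of library numbers, a bar at each median and Ctrl_LNA 48 marked. In Dhx37 the groups overlap by 1 Val_LNA embryo at 35.6, while in the other 7 genes they overlap more widely and Nop14 lies higher in Val_LNA.

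Within the group of scaffold proteins and enzymes Dhx37 stood alone among the called genes, and 8 of 9 members were not called. Nol6, a scaffold relative of yeast Utp22, had a median of 237 in Ctrl_LNA and 169 in Val_LNA (log2 fold change -0.34, limma adjusted p = 0.73). Noc4l, the partner of Nop14, had -0.78 (adjusted p = 0.24), Rcl1, a cyclase-like protein needed for an early cleavage, -0.81 (0.28), and Krr1, a KH-domain protein, -0.68 (0.34). The helicase Ddx52 had -0.40 (0.67) and the RNA acetyltransferase Nat10 -0.47 (0.73). These 6 values are all below 0 and none passed the test. Without Ctrl_LNA 48, Nat10 had -0.98 (limma adjusted p = 0.18), Nol6 -0.64 (0.35) and Ddx52 -0.21 (0.83).

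Nop14, a scaffold protein that joins the particle with Noc4l, had the highest fold change of the list. Its normalised count ran from 10.8 to 541 in Ctrl_LNA (median 211) and from 155 to 853 in Val_LNA (median 541). All but 1 of the 16 Val_LNA embryos were above the control median, and the ranges overlapped widely. The log2 fold change was 1.41 ± 0.43 (limma adjusted p = 0.084) and 1.24 without Ctrl_LNA 48 (0.074). Utp20, the largest scaffold protein of the list, had 0.84 (adjusted p = 0.62), with 1 Val_LNA embryo and 2 controls at 0, and 0.46 (0.80) without Ctrl_LNA 48.

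Wdr43, the UtpA subunit known as Utp5 in yeast, fell by 1.22 on the log2 scale. It lies at chr17:71615895-71659031 on the plus strand (ENSMUSG00000041057.9), and 60 of its exonic bases are shared with an antisense gene. Its normalised count ran from 1243 to 4580 in Ctrl_LNA (median 2352) and from 454 to 2307 in Val_LNA (median 928). All 16 Val_LNA embryos lay below the control median and 10 of them below the lowest control. The fold change of -1.22 ± 0.23 had an adjusted p of 0.0013 in limma, and edgeR gave -1.18 (adjusted p = 0.0093).

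Utp4, another UtpA subunit, called cirhin in humans and mutated in a childhood liver cirrhosis, was not called by limma with all embryos and was called without Ctrl_LNA 48. Its normalised count ran from 3.15 to 1670 in Ctrl_LNA (median 896), with the lowest value in Ctrl_LNA 48 and 248 in the next lowest, and from 82.5 to 944 in Val_LNA (median 177). Of the Val_LNA embryos, 15 lay below the control median. The log2 fold change was -1.36 ± 0.56 (limma adjusted p = 0.24) with all embryos and -1.84 (adjusted p = 0.00058) without Ctrl_LNA 48, and DESeq2 called it with all embryos (-1.54, adjusted p = 0.0085).

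The other 4 UtpA members did not pass the test, and 2 of them had a fold change above 0. Wdr75, known as Utp17 in yeast, had a median of 430 in Ctrl_LNA and 253 in Val_LNA (log2 fold change -0.70, limma adjusted p = 0.41). Nol11, a UtpA subunit of animals, had -0.42 (0.53). Utp15 had 0.16 and Heatr1, the HEAT-repeat scaffold called Utp10 in yeast, 0.30. Ctrl_LNA 48 had 1.05 normalised counts of each. Without it their fold changes were -0.40 and -0.12, and with all embryos centred they were -0.29 and -0.15.

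The UtpB and Mpp10 members showed no called difference. Utp6 and Utp18, both UtpB subunits, had log2 fold changes of -0.64 (limma adjusted p = 0.38) and 0.33 (0.63), the latter 0.12 (0.85) without Ctrl_LNA 48. Mphosph10, Imp3 and Imp4, the trimer that binds U3, and Utp3, relative of yeast Sas10, lay between -0.14 and -0.068, the narrowest range of any group of members. Their adjusted p-values lay between 0.82 and 0.93 in limma. Without Ctrl_LNA 48, Imp3 had -0.52 (limma adjusted p = 0.41), Imp4 -0.096 (0.89), Mphosph10 0.074 (0.84) and Utp3 0.017 (0.99).

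Nop56, a core protein of the U3 snoRNP and of all box C/D snoRNPs, fell. It lies at chr2:130274430-130279313 on the plus strand (ENSMUSG00000027405.16), with 4 snoRNA genes inside it that each had a mean under 20 normalised counts. Its normalised count ran from 856 to 2663 in Ctrl_LNA (median 1431) and from 363 to 2768 in Val_LNA (median 785). Of the Val_LNA embryos, 15 lay below the control median and 9 below the lowest control, while the highest value of all 32 was in Val_LNA. The log2 fold change was -0.93 ± 0.22 (limma adjusted p = 0.015), and it was not called by edgeR (-0.84, adjusted p = 0.10).

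The other U3 proteins were lower in median and, with all embryos, not called. Rrp9, the WD-repeat protein particular to U3, had medians of 1466 and 1029 (log2 fold change -0.70 ± 0.22, limma adjusted p = 0.084) and passed without Ctrl_LNA 48 (-0.72, adjusted p = 0.049). Fbl, the methyltransferase fibrillarin, had -0.094 (0.95), and -0.60 (0.33) without Ctrl_LNA 48. Nop58, which pairs with Nop56 in the particle, had -0.16 (0.89), and -0.026 (0.99) without that embryo.

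Tsr1, a GTPase-like protein of the late pre-40S particle, fell by 1.80 on the log2 scale. It lies at chr11:74898071-74909342 on the plus strand (ENSMUSG00000038335.13). Its normalised count ran from 208 to 2303 in Ctrl_LNA (median 475), the highest in Ctrl_LNA 48, and from 30.8 to 540 in Val_LNA (median 182). Of the Val_LNA embryos, 15 lay below the control median and 12 below the lowest control. The log2 fold change was -1.80 ± 0.35 (limma adjusted p = 0.0022), -1.65 without Ctrl_LNA 48, and -1.71 in edgeR (adjusted p = 0.0085). Its exons share 1240 bases with Srr, the serine racemase gene on the opposite strand, and the library protocol does not mark strand. Srr was also lower (173 ± 99.1 against 350 ± 152 normalised counts, SD, n = 16 each, log2 fold change -1.18, limma adjusted p = 0.032), and reads of the shared exons cannot be told apart.

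Bysl and Pno1, both factors of the same precursor, were not called with all embryos. Bysl, the relative of yeast Enp1, ran from 0 to 863 in Ctrl_LNA (median 569), with 323 as the lowest value when Ctrl_LNA 48 is left out, and from 10.7 to 775 in Val_LNA (median 169). Its log2 fold change was -1.14 (limma adjusted p = 0.39), and -1.72 (adjusted p = 0.0017) without Ctrl_LNA 48, with 361 exonic bases shared with Ccnd3 on the other strand. Ccnd3 itself had -0.29 (adjusted p = 0.72). Pno1, which holds the nuclease Nob1, ran from 173 to 3207 in Ctrl_LNA (median 568) and from 14.6 to 1003 in Val_LNA (median 237), with -1.47 ± 0.45 (limma adjusted p = 0.080). DESeq2 called Pno1 with all embryos (-1.31, adjusted p = 0.040) and not without Ctrl_LNA 48, its highest control (-0.96, adjusted p = 0.14).

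Their neighbours in the late particle did not pass. Nob1, the nuclease that makes the mature end of the small subunit RNA, had medians of 273 in Ctrl_LNA and 431 in Val_LNA (log2 fold change 0.43, limma adjusted p = 0.67). Ltv1, which is released late in maturation, had 0.22 (0.79), and the export factor Rrp12 -0.29 (0.83). Without Ctrl_LNA 48, Rrp12 had -0.77 (0.26) and Ltv1 0.039 (0.97). The values of Nob1 and Ltv1 turned below 0 when all embryos were centred, to -0.022 and -0.23. Centred without Ctrl_LNA 48, Nob1 had 0.25 and Ltv1 was below 0.

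Set against the other members of the same complex or group within each embryo, the called genes differed in how far they stood off. These ratios follow from the calls in the same comparison and are given as a description. The log2 ratio of Dhx37 to each of the other 8 scaffold proteins and enzymes was lower in Val_LNA by values from -5.35 (to Nop14) to -3.13 (to Rcl1), with 14 to 16 of the 16 Val_LNA embryos below the control median. Tsr1 was lower relative to Ltv1 (-2.02) and Nob1 (-2.23), with all 16 Val_LNA embryos below the control median in both, but differed by -0.33 relative to Pno1. Relative to Rrp12 the difference was -1.52 (-0.89 without Ctrl_LNA 48), and relative to Bysl -0.66 with and 0.062 without that embryo. Wdr43 was lower relative to Utp15 (-1.38, and -0.76 without Ctrl_LNA 48), Heatr1 (-1.52) and Nol11 (-0.80). Relative to Wdr75 it differed by -0.52 (-0.64 without Ctrl_LNA 48). Relative to Utp4 it differed by 0.14 (0.69 without that embryo), with 1 of the 16 Val_LNA embryos below the control median. Nop56 differed by -0.23 relative to Rrp9, by -0.78 relative to Nop58 and by -0.84 relative to Fbl (-0.35 without Ctrl_LNA 48).

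Levels per kilobase of exon ranked the members within each group. The length was that of all annotated exons of a gene merged, 924 bases for Imp3, 8553 for Imp4 and 10758 for Nop58. The transcripts present in these embryos may be shorter, so the places of genes depend on that length. In Ctrl_LNA the highest median was that of Imp3 (1006 normalised counts per kb), followed by Rrp9 (500), Utp3 (499) and Wdr43 (493), and the lowest were Dhx37 (15.8) and Utp20 (9.94). Imp3 also led in Val_LNA (578), and Dhx37 was last there (1.45). Nop14 went from place 25 to place 8, Utp4 from 9 to 23, Pno1 from 7 to 17, Bysl from 18 to 26 and Wdr43 from 4 to 9. Neighbouring places often differ by less than the spread between embryos, which was 15.2% (Mphosph10) to 90.8% (Nob1) of the mean in Ctrl_LNA without 48 and 27.8% (Mphosph10) to 114% (Dhx37) in Val_LNA.

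The processome genes varied together from embryo to embryo. Over the 465 pairs of members the median Spearman correlation was 0.56 across the 16 Val_LNA embryos, 0.42 across the 16 controls and 0.56 without Ctrl_LNA 48, where all pairs of tested genes had medians of 0.012, 0.062 and 0.014. Of the 465 pairs, 444 were positive in Val_LNA and 413 in Ctrl_LNA without 48. Utp15 and Nob1 were the closest pair in both groups (0.94 in Val_LNA and 0.91 in Ctrl_LNA). Pairs share their libraries and the size factor of each embryo, so these values are a description. The pairs of all tested genes were not matched to the members in level. Pairs within the other lists were not measured, so whether they vary together as much was not tested.

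Mphosph10 and Tsr1 departed from that pattern. Mphosph10, the namesake of the Mpp10 complex, had a median correlation with the other members of -0.12 in Val_LNA and -0.38 in Ctrl_LNA without 48. Tsr1 had 0.71 in Val_LNA and -0.17 in Ctrl_LNA without 48, a difference that was not tested. Nop56 had 0.56 and 0.23. Dhx37 had 0.31 and 0.36, below the median pair in both groups.

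**Figure D3:**
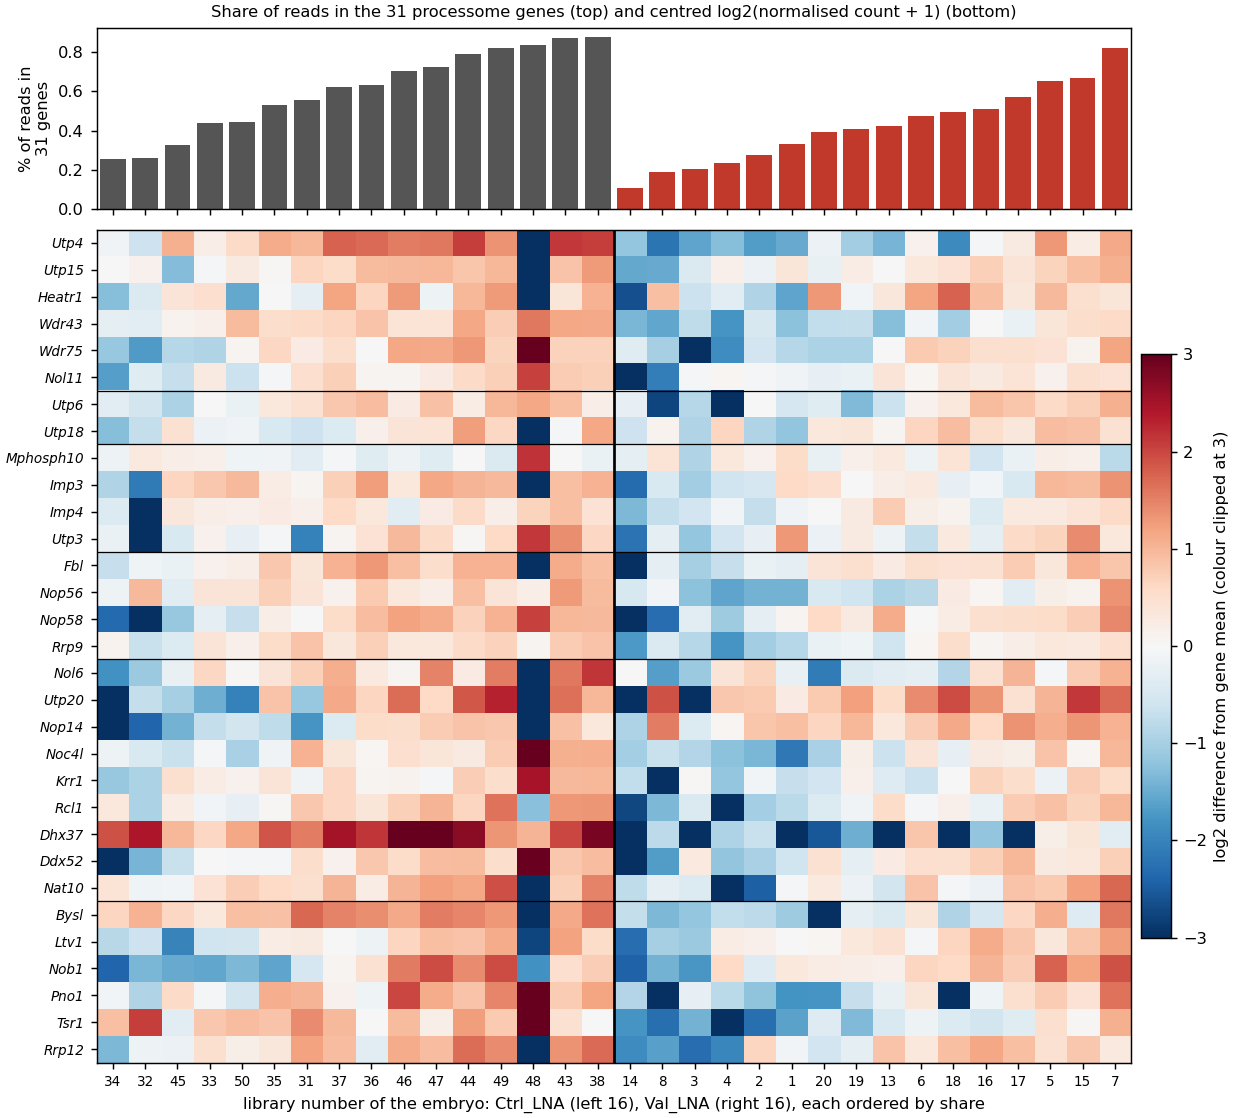
Share of each embryo's reads in the 31 processome genes (top, percent) and, below, log2(normalised count + 1) of each gene minus its mean over 32 embryos (colour, clipped at 3), with Ctrl_LNA on the left and Val_LNA on the right, each ordered by the share. The share runs from 0.254 to 0.875% in Ctrl_LNA and from 0.106 to 0.820% in Val_LNA, most genes turn from blue to red along that order in both groups, and Ctrl_LNA 48 mixes dark red and dark blue.

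The share of reads in the 31 genes ran from 0.254 to 0.875% in Ctrl_LNA (median 0.627%) and from 0.106 to 0.820% in Val_LNA (median 0.418%). The ranges overlapped over most of their length. Embryos with a high share had low levels of stage markers. Across the 16 Val_LNA embryos the log2 share correlated with the log2 summed late 2-cell markers at Pearson's r = -0.85 (Spearman's rho -0.85, r = -0.81 without the 2 embryos farthest from the marker median). Across the 15 controls without Ctrl_LNA 48 it was -0.86 (rho -0.76, then -0.73). With the summed egg-derived transcripts r was -0.93 in Val_LNA (rho -0.89, then -0.88) and -0.78 in these controls (rho -0.83, then -0.65). The points share library and depth, and no p is given.

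**Figure D4:**
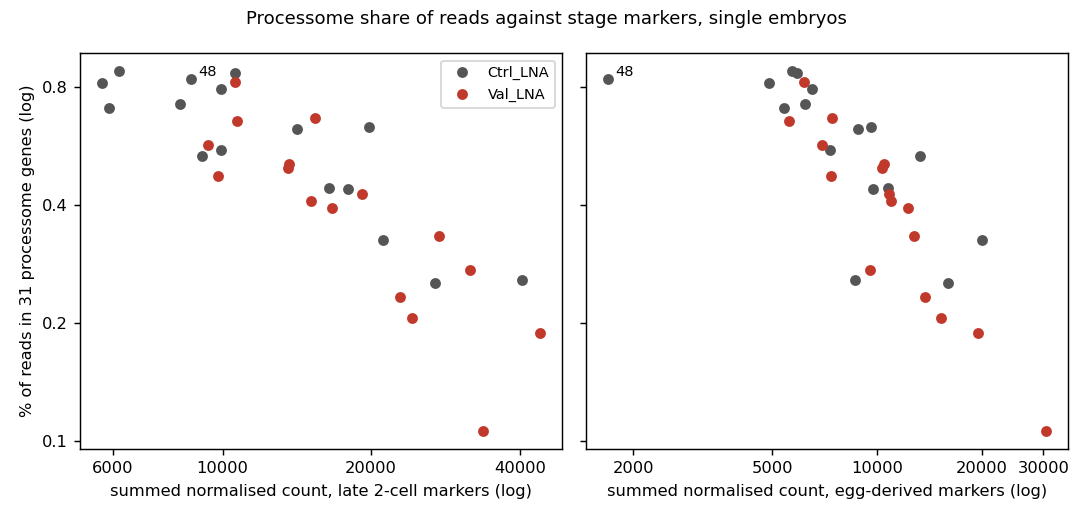
Share of reads in the 31 processome genes (vertical log axis, percent) against the summed normalised count of late 2-cell markers (left) and of egg-derived transcripts (right, both log axes), with 1 point for each embryo. In both panels the points of both groups run from upper left to lower right along overlapping bands, and Ctrl_LNA 48 has the lowest egg-derived sum, 1692.

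Those marker sums had higher medians in Val_LNA, with ranges that overlapped widely, and the difference was not tested. They were measured after the injection, so holding them as covariates may also take out part of the group difference. The late 2-cell sum had a median of 16030 normalised counts in Val_LNA (9351 to 44043) and 10273 in Ctrl_LNA (5703 to 40403), and the egg-derived sum 10637 (5604 to 30533) and 8001 (1692 to 20022). In a limma fit that held the late 2-cell sum as a covariate, an analysis chosen after the data were seen, the members' median fold change was -0.031, beside 0.11 for all genes. That fit called 3 members lower (Dhx37 -3.74, Wdr43 -0.93 and Tsr1 -1.54) and Nop14 higher (1.82, adjusted p = 0.0095), with 1.1% of all genes lower and 1.02% higher, and Nop56 missed (-0.79, adjusted p = 0.055). With the egg-derived sum as the covariate the median was -0.28 beside -0.017 for all genes, and 4 members were lower (the same 4 as without a covariate) and Nop14 higher (1.61, adjusted p = 0.044), with 1.34% and 0.803% of all genes.

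Leaving out Ctrl_LNA 48 as well, both covariate fits called the same 6 members lower, Dhx37, Wdr43, Tsr1, Nop56, Utp4 and Bysl. The late 2-cell fit called Nop14 higher (1.67, limma adjusted p = 0.0024), with 2.4% of all genes lower and 2.28% higher. The egg-derived fit called Nop14 (1.63, adjusted p = 0.0021) and Nob1 (0.95, adjusted p = 0.022) higher, with 2.49% and 1.94% of all genes. The median of the 31 was -0.20 with the late 2-cell and -0.25 with the egg-derived covariate, beside -0.021 and -0.0091 for all genes. Pno1, called by DESeq2, had -0.75 (adjusted p = 0.24) and -0.93 (0.17) there.

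The library numbers form 4 unbroken runs of 8 embryos, 2 in each group, which the labels do not call batches, and each pair of runs was compared alone. In the lower runs, Val_LNA 1 to 8 against Ctrl_LNA 31 to 38, only Dhx37 was called among the members (-3.14, limma adjusted p = 0.025), with 0.533% of all genes lower. In the upper runs, Val_LNA 13 to 20 against Ctrl_LNA 43 to 50, Dhx37 (-4.75, adjusted p = 0.012) and Wdr43 (-1.41, adjusted p = 0.041) were called, with 0.212% of all genes, and without Ctrl_LNA 48 Utp4 joined them (-2.13, adjusted p = 0.0044), with 0.797%. Tsr1 had -2.03 in the lower runs (adjusted p = 0.066) and -1.58 in the upper (0.28), and Nop56 had -1.15 (0.16) and -0.72 (0.39). A term for the difference between the effects of the runs called no member and 0.0% of all genes, with or without Ctrl_LNA 48, by limma. At an unadjusted p under 0.05 that term held for no member with all embryos and for Nop14 without Ctrl_LNA 48, where 808 and 920 genes passed. Nop14 had 1.96 in the lower runs and 0.42 in the upper runs without Ctrl_LNA 48.

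**Figure D5:**
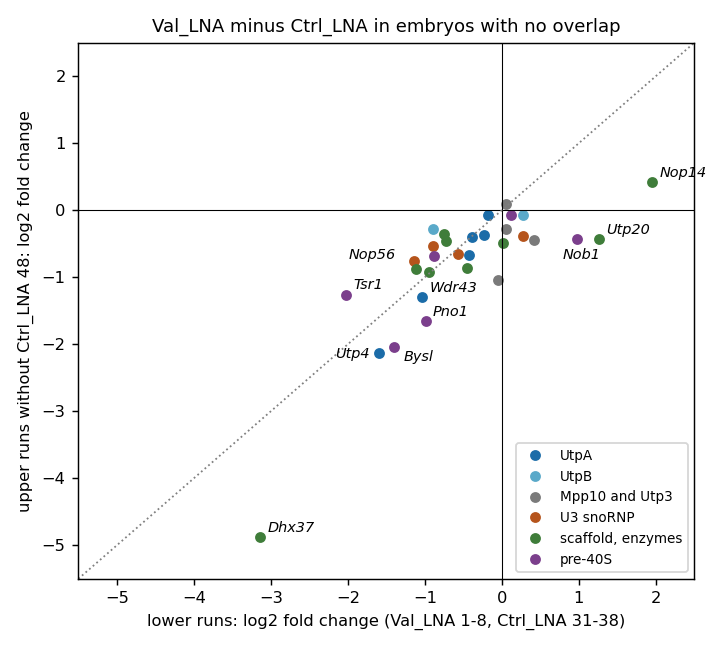
Log2 fold change of each processome gene in the lower runs of library numbers (horizontal axis) against the upper runs without Ctrl_LNA 48 (vertical axis), Val_LNA minus Ctrl_LNA on log2(normalised count + 1), with 1 point for each gene coloured by complex and a dotted line of equality. Dhx37 lies at -3.14 and -4.88, Utp4 and Bysl lie low on both axes, and Nop14 is right of 0 at 1.96 but at 0.42 on the vertical axis.

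Since the members moved together across embryos, the sequence around their start sites was read. RefSeq (GRCm38.p6) gave a window of 250 bases before to 50 after the start for 27 of the 31 genes, and each was searched on both strands for 7 short motifs. The letters CACGTG, the E-box bound by Myc and Max, which drive many ribosome assembly genes, stood in 9 of the 27 windows (33.3%) and in 2349 of all 32851 windows in the table (7.15%). They began after the start site in 6 of the 9. The windows of the whole table were not matched to those of the members in base content or expression. They stood in members of every role but the U3 snoRNP, as did the ETS core, while the GC box and the CCAAT box stood in every role. The 9 stretches are shown 5′ to 3′ on the strand of the gene, with the E-box in capitals.
Utp4: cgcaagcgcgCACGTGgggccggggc
Wdr43: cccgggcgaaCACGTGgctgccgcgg
Nol11: tgagcgttcgCACGTGgtctagactc
Utp18: gagcgccggtCACGTGgcttgcggcg
Imp4: ggtcttagacCACGTGacatcccaaa
Utp20: gcactaactaCACGTGaggaaaa
Ltv1: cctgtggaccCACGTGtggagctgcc
Pno1: tacaaccacgCACGTGttcctct
Tsr1: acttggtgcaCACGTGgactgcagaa
Of the 4 called genes, Wdr43 (chr17:71616222-71616247, plus strand) and Tsr1 (chr11:74898094-74898119, plus strand) hold the E-box. Of the members called lower only in other fits, Utp4 (chr8:106893645-106893670, plus strand) and Pno1 (chr11:17211540-17211562, minus strand) hold it. Bysl and Rrp9, also called lower only in other fits, lack it. Members that no count test called hold it too, Nol11 (chr11:107189409-107189434, minus strand), Utp18 (chr11:93885771-93885796, minus), Imp4 (chr1:34439698-34439723, plus), Utp20 (chr10:88826765-88826787, minus) and Ltv1 (chr10:13193094-13193119, minus). All 4 called members are among the 27 windows. The letters thus stood in 2 of these 4 and in 7 of the remaining, more numerous windows of members not called.

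The windows of Dhx37 and Nop56 lack those letters. Dhx37 holds instead the ETS core CCGGAAG and the NRF1 core GCATGCGC, which overlaps its own reverse complement there. The ETS core begins 64 bases, the NRF1 core 75 and its reverse complement 77 bases before the RefSeq start. The stretch around them, chr5:125434102-125434131 on the minus strand, also holds the start of the gene model given above. It is shown for the member that changed most, with both cores in capitals.
Dhx37: gctcttGCGCATGCGCaacCCGGAAGtctc
The ETS core stood in 8 of the 27 windows (29.6%, and 8.86% of all windows) and the NRF1 core in 3 (11.1% and 2.71%), the others being Nob1 and Pno1. The GC box GGGCGG stood in 18 (66.7% and 35.7%), all 4 called members among them, the CCAAT box in 13 (48.1% and 37.4%), the YY1 core AAGATGGCG in 1 (Imp4, 3.70% and 1.40%), and TATAAA in 1 (Nol11, 3.70% and 13.6%). A match is a run of letters in the window and does not show that a factor binds.

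Genes that act beside the listed ones were read from 3 further lists. Of 38 other processome and small subunit assembly factors, Nop9 fell (240 ± 181 against 556 ± 261 normalised counts, SD, n = 16 each, log2 fold change -1.55, limma adjusted p = 0.036) and Trmt112, the partner of several methyltransferases, rose (531 ± 162 against 256 ± 220, 1.62, adjusted p = 0.015). The other 36 were not called, and the list's median was -0.38. Neither call was made by edgeR (adjusted p = 0.12 and 0.30). Of 66 factors of large subunit assembly, RNA polymerase I and the nucleolus, Nvl (-1.43, limma adjusted p = 0.0023) and Ftsj3 (-2.09, adjusted p = 0.0080) fell, none rose and the median was -0.26. Of 34 small subunit ribosomal proteins none rose, the log2 fold change was below 0 for 29, and the median was -0.29. Among all tested genes 1.31% were lower, 0.881% higher and 35.7% below 0, with a median of 0.26. Genes called lower made up 2.63% of the other processome list and 3.03% of the large subunit list. Without Ctrl_LNA 48 the large subunit list had 6 lower and 1 higher, beside 2.63% and 1.57% of all genes. The ribosomal proteins then had 32 below 0, beside 45.8% of all genes.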

How the data were processed

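Per the labels' protocols, polyadenylated RNA of each embryo was reverse transcribed with template switching, amplified and tagmented. The protocol has no step with molecular identifiers or strand marking, so a PCR copy is a read like any other, depth speaks for counting error only, and overlapping genes share reads. The tools named for mm10 in the submitters' processing notes are STAR, Bowtie2, DESeq2 and SAMtools. The roles and versions of these tools were not given in the sources used here, nor was the annotation counted.

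Values of each gene in each embryo are a signal, read counts that the authors divided by a size factor, per the file headers of the deposited table. A second deposited file holds those factors. Multiplied by the factor, 1095136 of 1095136 values (100%) were whole reads within 0.0086, and these recovered reads entered the count tests. No column lacked an embryo (0). The chi-square per gene was at least 25.3 in the 240 pairs of same-group embryos, so none agreed within sampling noise. GENCODE M21 matched 34179 of 34223 identifiers.

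All embryos entered limma 3.58.1 (R 4.3.3, trend and robust) on log2(normalised count + 1), over 15559 genes with at least 10 in at least 8 embryos. Adjusted p-values are Benjamini-Hochberg over all of them, called under 0.05. For low genes a fold change on this scale depends on the pseudocount and on values of 0. That of Dhx37 (-3.94) was larger in size than in edgeR (-3.34). Each member's values stand with its group's spread. Named genes are all 31 members, with full values for those called here or by a count test, and up to 3 called genes with the smallest p from each other list, except that a result for 1 listed gene is not reported here. Members and lists were chosen with earlier results of these data known. Alternatives were edgeR 4.0.16 (TMM), DESeq2 1.42.0, another pseudocount (10), filters, scaling, covariates, array weights, runs of library numbers and leaving out embryos. The marker covariates, centring without Ctrl_LNA 48, and the ratios were added after seeing the data. Scripts were tested on simulated data. Python 3.11.15, numpy 2.4.6, scipy 1.17.1, pandas 2.3.3 and matplotlib 3.10.9 were used.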

Additional observations from a re-analysis of the deposited data

How the results depend on the processing

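Dhx37 was called lower in all 19 alternatives and in all 32 analyses that left out 1 embryo. Wdr43, Tsr1 and Nop56 were called in each of those 32 and in 17, 16 and 11 of the 19. The members' median stayed below 0 throughout, between -0.84 (all embryos centred, -0.61 when centred without Ctrl_LNA 48) and -0.031 (late 2-cell covariate). The number of members called lower was 1 in the lower runs, 2 in the upper runs, 8 with array weights and 4 to 7 when 1 embryo was left out (7 without Ctrl_LNA 48). Members called higher numbered 1 with array weights, 1 with each marker covariate and with the late 2-cell covariate without Ctrl_LNA 48, and 2 with the egg covariate without it. Among all genes 137 were higher and 204 lower. Counts higher were 29 (edgeR), 84 (edgeR without Ctrl_LNA 48), 268 (DESeq2 without it), 87 (no filter), 61 (centred), 373 (genes detected as covariate), 2 (upper runs), 7 (upper runs without Ctrl_LNA 48), 353 (array weights), 355 and 302 (late 2-cell and egg covariates without it) and 100 to 245 leaving out 1 embryo. Counts lower were 325 (DESeq2), 401 (DESeq2 without Ctrl_LNA 48), 363 (genes detected), 83 (lower runs), 33 (upper runs), 124 (upper runs without it), 564 (array weights), 433 (centred without it), 373 and 387 (marker covariates without it) and 176 to 409 leaving out 1 embryo. In the other processome factors, 0 rather than 1 was higher in edgeR, DESeq2 (each with and without Ctrl_LNA 48), centred embryos and both upper run analyses, and 2, 2, 3 and 4 with the marker covariates. There 0 were lower in edgeR (with and without Ctrl_LNA 48), without a filter, with centring, with reads as covariate, in either run and with 3 marker covariate fits, 2 in DESeq2 and with array weights, and 0 to 1 leaving out 1 embryo. For large subunit factors, 2 (genes detected, array weights), 1 (lower runs) and 2 to 3 (marker covariates) were higher, and 0 to 1 leaving out 1 embryo. Lower were 5 (DESeq2 without Ctrl_LNA 48, array weights), 4 (genes detected, centred without it), 0 (either run), 1 (upper runs without it) and 2 to 6 leaving out 1 embryo. For ribosomal proteins 2 were lower in DESeq2 and in edgeR without Ctrl_LNA 48, 3 in DESeq2 without it, 0 without a filter, with centring, in either run and with the late 2-cell covariate, and 1 to 2 leaving out 1 embryo.

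Members that were not called changed sign as follows, with values on the log2 scale and the cause not tested. In edgeR and DESeq2 Utp15 had -0.33 and -0.27. Without Ctrl_LNA 48 these tools gave Utp15 -0.42 and -0.41, Heatr1 -0.072 and -0.055, Mphosph10 0.047 and 0.068, Ltv1 -0.031 and -0.022, and Nob1 -0.013 and -0.0081. With centring Utp15 had -0.29, Heatr1 -0.15, Utp18 -0.12, Ltv1 -0.23 and Nob1 -0.022, and without Ctrl_LNA 48 as well Utp15 -0.46, Heatr1 -0.19, Mphosph10 0.0056 and a Ltv1 log2 fold change of -0.029. With genes detected as covariate Utp15 had -0.078. In the lower runs Utp15 had -0.39, Heatr1 -0.18, Mphosph10 0.059, Imp4 0.061, Utp3 0.41, Nop58 0.27 and Ddx52 0.017. In the upper runs Fbl had 0.38, Nat10 0.18, Nob1 -0.12 and Rrp12 0.31, and without Ctrl_LNA 48 Utp15 -0.41, Heatr1 -0.068, Utp18 -0.076, Mphosph10 0.090, Utp20 -0.43, Ltv1 -0.066 and Nob1 -0.43. Array weights gave Utp15 -0.25, Heatr1 -0.015, Mphosph10 0.090, Utp3 0.10 and Nop58 0.028. The late 2-cell covariate gave Imp3 0.15, Imp4 0.19, Utp3 0.26, Fbl 0.15, Nop58 0.62, Ddx52 0.25 and Rrp12 0.081, and without Ctrl_LNA 48 Utp15 -0.075, Nol11 0.061, Imp4 0.20, Utp3 0.35, Nop58 0.68 and Ddx52 0.36. The egg covariate gave Utp15 -0.094, Nol11 0.075, Mphosph10 0.051, Imp4 0.050, Utp3 0.28, Nop58 0.49 and Ddx52 0.26, and without it Utp15 -0.060, Nol11 0.077, Mphosph10 0.044, Imp4 0.052, Utp3 0.28, Nop58 0.49 and Ddx52 0.27. Leaving out 1 embryo gave ranges of -0.40 to 0.27 (Utp15), -0.12 to 0.48 (Heatr1), -0.11 to 0.074 (Mphosph10), -0.52 to 0.048 (Imp3), -0.32 to 0.024 (Utp3), -0.60 to 0.15 (Fbl) and -0.43 to 0.059 (Nop58), with the ends at Ctrl_LNA 48 or 32 and Val_LNA 14 or 1 left out. The Tsr1 to Bysl ratio was -0.66, and 0.062 without Ctrl_LNA 48.

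No paired analysis was possible because the groups share no replicate numbers. Dhx37 in Val_LNA embryos and Utp20 in both groups include libraries with 0 reads, as do Bysl and Nat10 in Ctrl_LNA through replicate 48. A level under 1 read was not detectable at this depth. Among uncalled members a small difference was not detectable at this spread, which does not show that they were alike.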
